A study of Mus musculus with 6 samples.

Results

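The insulin-like growth factor (IGF) genes described here are 10 genes of the 25655 in the deposited table, chosen by symbol. They are the ligands Igf1 and Igf2, the receptors Igf1r and Igf2r, and the carriers Igfbp2, Igfbp3, Igfbp4, Igfbp5, Igfbp6 and Igfbp7. RNA was sequenced from Comma-Dβ, an established line of mammary epithelial cells from the mouse, used here at passage 29. In the siID4 arm, 3 cultures described as biological replicates received a siGENOME pool of siRNAs against mouse Id4. In the NT arm, 3 received an ON-TARGETplus pool that targets no gene, so product line and target both differ. In both arms the siRNA was used at 20 nM with the same transfection reagent, RNA was taken after 48 hr, and the medium held 2% serum, 0.125 IU/mL insulin and 5 ng/mL EGF. Insulin at high concentration can also bind the IGF1 receptor, so every library comes from cells given a ligand of this system. The genes were chosen with the contrast of siID4 and NT already known, so their differences between the arms are given as a description, without p-values. Igfbp1, the remaining classical carrier, was not found by symbol in the deposited table, so it was not analysed. It is counted among the extracellular partners listed below.

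IGF1 and IGF2 are small secreted hormones that act through the tyrosine kinase IGF1R, which signals to PI3K, AKT and mTOR and favours growth and survival. IGF2R has no kinase. It takes IGF2 up for degradation and sorts lysosomal enzymes that carry mannose 6-phosphate. The IGF binding proteins (IGFBPs) hold the ligands outside the cell, prolong their life, and either keep them from the receptor or deliver them, and proteases that cut IGFBPs set the ligands free. In the mammary gland this system is known from ductal growth, which needs IGF1, and from involution, during which IGFBP5 accumulates. ID4 belongs to the helix-loop-helix proteins. It lacks a basic region, and by pairing with E proteins it keeps them from the DNA sequence CANNTG, the E box.

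Id4 mRNA was lowered and still present. It stood at 59.4, 62.2 and 48.2 CPM (counts relative to library size, scaled by TMM) in the siID4 libraries, against 135, 114 and 118 CPM in the NT libraries, a log2 fold change of −1.11 (SE 0.10, edgeR adjusted p = 8.65e-04). With the replicate number as a block the SE was 0.11 (edgeR adjusted p = 0.0113). Between libraries of the same number, siID4 over NT was −1.19, −0.87 and −1.29 log2 units. Library totals were 21701067 to 23062482 counts in siID4 and 19216688 to 23095620 counts in NT. Mammary epithelial markers were present in every library. Of 11 such markers 3 rose and 2 fell, where 4.62% of all genes tested rose and 4.93% fell, and with the replicate number as a block 3 rose and 7 fell (17.9% and 18.3% of all genes). Their summed level was 2736 to 3128 CPM in siID4 against 2977 to 3382 CPM in NT. All 8 endothelial and pericyte markers averaged under 1 CPM, as did 5 of 6 leukocyte and 4 of 5 adipocyte markers, with Plin1 at 0.

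The genes lie at separate loci except for Igfbp2 and Igfbp5. On GRCm38 (GENCODE M21), Igfbp2 runs on the plus strand at chr1:72824503-72852474 and Igfbp5 on the minus strand at chr1:72857932-72874884, tail to tail with 5.46 kb between them. Both are protein-coding, as are the other 8. Igfbp3 (chr11:7206086-7213923, minus strand) lies 3.54 kb from Igfbp1, and Igfbp4 is elsewhere on the same chromosome (chr11:99041244-99054392, plus strand). Igfbp6 is at chr15:102144362-102149511 on the plus strand and Igfbp7 at chr5:77349240-77408041 on the minus strand. Igf1 is at chr10:87858265-87937042 and Igf1r at chr7:67952827-68233668, both on the plus strand. Igf2 is at chr7:142650766-142666816 and Igf2r at chr17:12682406-12769664, both on the minus strand. Igf2r shares 28354 bases with the antisense RNA gene Airn, and Igfbp7 shares 85 bases at an end with Polr2b on the opposite strand. Whether the counting used strand is not given in the sources used here. Airn held 73 to 100 counts in the siID4 libraries and 78 to 103 in the NT libraries, where Igf2r held 4801 to 5027 counts in siID4 and 5035 to 5877 in NT. Polr2b held 3913 to 4300 counts in siID4 and 3803 to 4433 in NT, more than Igfbp7. Igfbp7 held 3237 to 3633 counts in siID4 and 1771 to 2165 in NT. Igfbp7 also shares 7085 bases with the antisense gene Gm34648, which was not analysed here. Igf2 shares 16048 bases on the same strand with the protein-coding gene Gm49394, also not analysed here, so its few counts are uncertain.

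The promoters of 4 carriers are shown, picked by the position of the gene or its change between the arms. They are those of Igfbp2 and Igfbp5, the neighbours, of Igfbp7, whose rise varied least between libraries, and of Igfbp6, the carrier that fell most. Each is the RefSeq window on GRCm38.p6 from 250 bases before to 50 bases after the annotated start, read 5′ to 3′ on the gene's strand. Capitals mark CANNTG, which reads the same on both strands. The windows are chr1:72824230-72824529 (plus) for Igfbp2, the upstream start of 2 annotated, chr1:72874816-72875115 (minus) for Igfbp5, chr5:77407996-77408295 (minus) for Igfbp7 and chr15:102143936-102144235 (plus) for Igfbp6. The RefSeq and GENCODE starts of Igfbp6 differ, and its window ends before the GENCODE gene, which starts at 102144362. Among the windows counted but not shown, that of Igf1 (chr10:87860861-87861160) lies inside its GENCODE gene. That of Igf1r (chr7:67952007-67952306) ends before its GENCODE gene.
Igfbp2: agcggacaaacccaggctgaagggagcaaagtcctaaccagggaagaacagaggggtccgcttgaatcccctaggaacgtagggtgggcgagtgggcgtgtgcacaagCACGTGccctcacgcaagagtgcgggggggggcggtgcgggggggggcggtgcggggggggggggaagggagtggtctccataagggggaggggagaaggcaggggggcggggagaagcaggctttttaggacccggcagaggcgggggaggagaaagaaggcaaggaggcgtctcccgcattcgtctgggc
Igfbp5: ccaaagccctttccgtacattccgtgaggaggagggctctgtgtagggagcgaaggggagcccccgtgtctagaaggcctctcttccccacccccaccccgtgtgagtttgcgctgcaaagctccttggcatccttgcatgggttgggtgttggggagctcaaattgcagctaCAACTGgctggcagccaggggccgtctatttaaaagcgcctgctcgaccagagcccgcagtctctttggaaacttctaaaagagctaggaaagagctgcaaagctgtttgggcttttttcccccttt
Igfbp7: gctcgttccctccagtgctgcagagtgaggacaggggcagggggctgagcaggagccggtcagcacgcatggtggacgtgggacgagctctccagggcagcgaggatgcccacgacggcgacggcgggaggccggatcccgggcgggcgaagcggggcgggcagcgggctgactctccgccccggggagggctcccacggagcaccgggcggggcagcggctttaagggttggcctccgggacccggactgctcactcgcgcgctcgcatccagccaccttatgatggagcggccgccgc
Igfbp6: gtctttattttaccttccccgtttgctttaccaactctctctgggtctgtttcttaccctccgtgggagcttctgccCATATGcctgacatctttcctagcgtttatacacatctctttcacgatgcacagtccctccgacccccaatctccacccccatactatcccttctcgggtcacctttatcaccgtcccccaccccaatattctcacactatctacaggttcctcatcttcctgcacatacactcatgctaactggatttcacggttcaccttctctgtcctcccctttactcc
In the windows shown, Igfbp2, Igfbp5 and Igfbp6 each had 1 match and Igfbp7 had 0, and the downstream start of Igfbp2 had 2. The match shown for Igfbp2 is the form CACGTG (7.15% of all windows), which also stood in the Igf2r promoter. Over the 14 windows annotated for the 10 genes, 10 held CANNTG, against 72.3% of all 32851 RefSeq windows of this length. CAGCTG stood in 1 of the 14 (16.3% of all windows), in the Igf1 promoter. CAGGTG, or CACCTG on the other strand, stood in 3 (20.2% of all windows), those of Igf2r, Igfbp3 and the downstream start of Igfbp2. Both are forms of CANNTG and are counted in it. The forkhead motif GTAAACA, searched on both strands, stood in 0 of the 14 (3.65% of all windows). A match is a stretch of letters and not a site shown to be bound.

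Of the 10 genes, 9 had enough counts to be tested, and 6 were called at an adjusted p under 0.05 in edgeR's quasi-likelihood test, where 9.55% of the 13941 genes tested were called. Igf1, Igfbp2 and Igfbp7 rose in siID4 cells (4.62% of all genes tested did) and Igf2r, Igfbp4 and Igfbp6 fell (4.93%). Igf1r, Igfbp3 and Igfbp5 were not called, and Igf2 was not tested. In 7 of the 9 the arms did not overlap, as in 30.9% of all genes tested. The median log2 fold change of siID4 over NT was 0.18 for the 9 and 0.00 for all genes tested, and the median size regardless of sign 0.63 against 0.12. Because the choice used this contrast, nothing is read from these shares. With the replicate number as a block, 8 of the 9 were called (36.1% of all genes), 5 that rose (17.9%) and 3 that fell (18.3%), Igfbp5 and Igf1r being added. Over all genes 644 rose and 687 fell, or 829 and 564 with library totals in place of TMM.

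**Figure D1:**
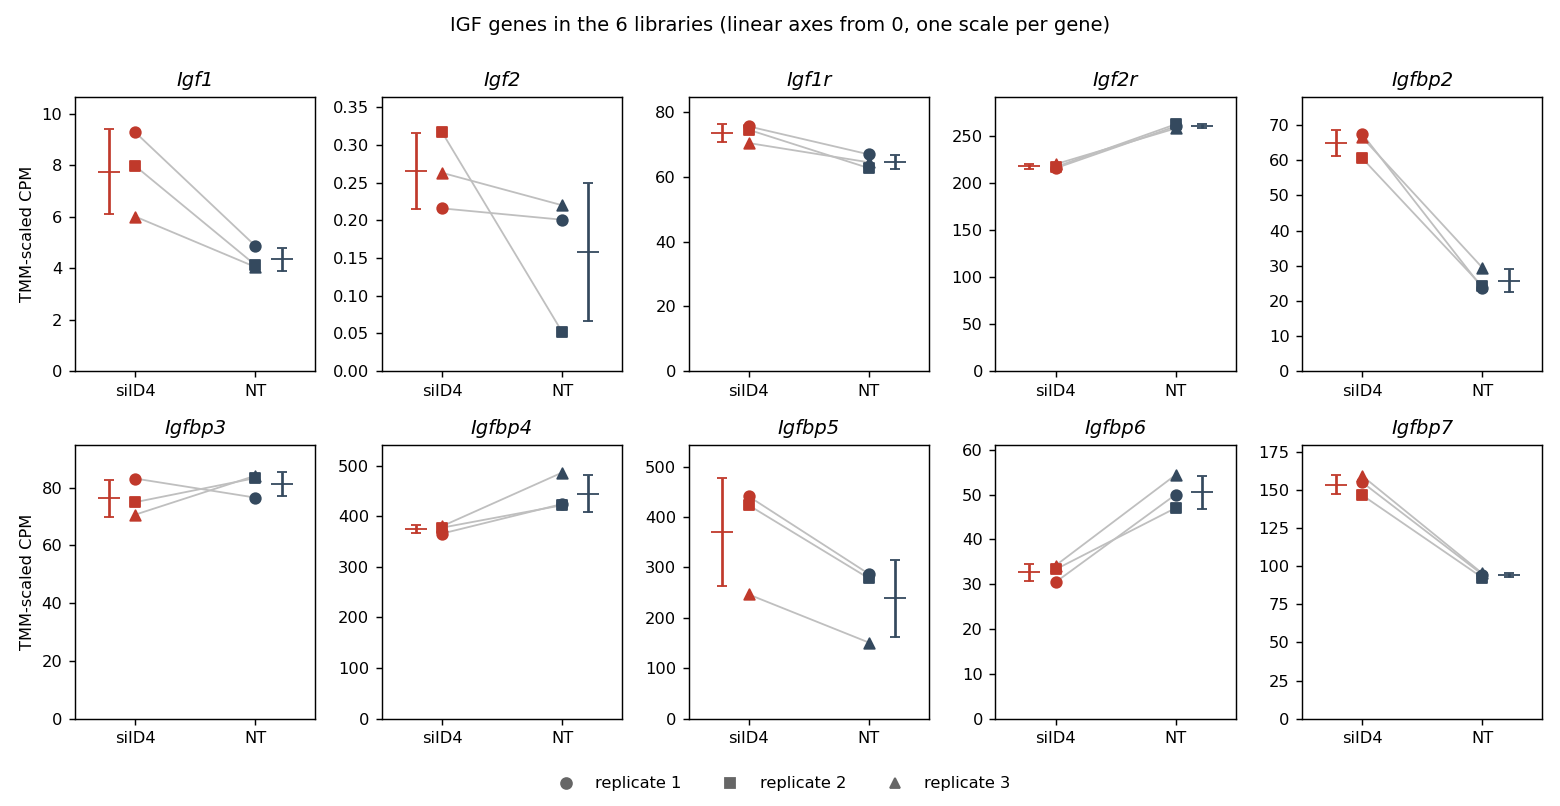
TMM-scaled CPM (y axis, linear, from 0) of each of the 10 genes in the siID4 (red) and NT (dark) libraries. Marker shapes give the replicate number, grey lines join libraries of the same number, and bars are mean ± SD of 3 libraries. Igfbp2 and Igfbp7 sat above NT in all siID4 libraries, Igfbp6 and Igf2r below, and Igfbp5 was lowest in replicate 3 of both arms.

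Among the ligands, only Igf1 was expressed at a level that could be tested. Igf1 had 9.28, 7.97 and 6.01 CPM in siID4, against 4.87, 4.13 and 4.05 CPM in NT, so the lowest siID4 library was above the highest NT library. The means were 7.75 ± 1.65 CPM in siID4 and 4.35 ± 0.453 CPM in NT (SD, n = 3 each), a log2 fold change of 0.84 (SE 0.18) or 1.78-fold. The siID4 libraries were further apart from each other than the NT libraries were. The call was lost without siID4 replicate 1, siID4 replicate 2, NT replicate 2 or NT replicate 3, with log2 fold changes from 0.68 to 0.82 in those fits. Igf2, the imprinted fetal ligand, had 5, 7 and 6 counts in siID4 and 4, 1 and 5 counts in NT, which is 0.265 ± 0.0506 CPM in siID4 and 0.158 ± 0.0918 CPM in NT. The arms overlapped, and at this depth a difference in Igf2 was not detectable.

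Of the receptors, Igf2r fell by a small amount and Igf1r was not called. Igf2r had 216, 217 and 220 CPM in siID4, against 261, 263 and 259 CPM in NT. It fell by 0.26 on the log2 scale (SE 0.04), to 0.836 of the NT level, and its libraries differed less within an arm (SD 2.21 CPM in siID4 and 2.18 CPM in NT) than between arms. Igf1r, the signalling receptor, had 75.5, 74.5 and 70.4 CPM in siID4, against 66.9, 62.7 and 64.5 CPM in NT. The arms did not overlap, with a log2 fold change of 0.18 (SE 0.05) that was not called with group as the only term. It was called with the replicate block (0.18, SE 0.04), with library totals in place of TMM (0.21) and among genes of at least 5 CPM (0.20). Per length, Igf2r transcripts stood at 1.51 ± 0.0723 times those of Igf1r in siID4 and 2.05 ± 0.0766 times in NT (SD, n = 3 each).

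Igfbp2, whose product binds IGFs with a preference for IGF2 and can also bind integrins, changed most. It had 67.5, 60.6 and 66.5 CPM in siID4, against 23.6, 24.1 and 29.4 CPM in NT. Every siID4 library had more than 2 times the level of every NT library. The log2 fold change was 1.33 (SE 0.09), or 2.52-fold, and it was at least 1.27 in each of the 6 fits without 1 library.

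Igfbp7 encodes a carrier of low affinity that is secreted into the matrix. It had 155, 147 and 159 CPM in siID4, against 94.6, 92.5 and 95.3 CPM in NT. The arms were far apart compared with the spread in either, with a log2 fold change of 0.71 (SE 0.05), or 1.63-fold. Between libraries of the same number, siID4 exceeded NT by 0.71, 0.66 and 0.74 log2 units.

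Igfbp5 is the neighbour of Igfbp2 and encodes a carrier that binds matrix and is known from the involuting gland. It had 441, 424 and 246 CPM in siID4, against 287, 278 and 151 CPM in NT. Replicate 3 was the lowest library of each arm, and siID4 replicate 3 lay below NT replicates 1 and 2, so the arms overlapped. The level in replicate 1 was 1.79 times that in replicate 3 in siID4 and 1.90 times in NT. Between libraries of the same number the differences of siID4 over NT were 0.62, 0.60 and 0.71 log2 units, all of similar size. The log2 fold change of 0.63 had an SE of 0.33 with group as the only term and was not called, while with the replicate block it was 0.64 (SE 0.03) and was called. Without replicate 3 of both arms it was 0.61 and was called. The labels do not say what libraries of the same number share.

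Igfbp4, whose product mostly holds IGFs away from the receptor, was the most abundant carrier per length. It had 366, 377 and 380 CPM in siID4, against 424, 422 and 486 CPM in NT. All siID4 libraries were below all NT libraries, and NT replicate 3 was the highest. The log2 fold change was −0.25 (SE 0.06), and the call was kept in 1 of the 6 fits without 1 library, that without NT replicate 1. The value was −0.18 without NT replicate 3 and −0.19 without replicate 3 of both arms, both not called.

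Igfbp6 encodes the carrier with the strongest known preference for IGF2. It had 30.4, 33.3 and 34.2 CPM in siID4, against 49.99, 47.0 and 54.4 CPM in NT. The arms did not overlap, and it fell by 0.63 on the log2 scale (SE 0.08), to 0.646 of the NT level. Igfbp3, which encodes the main carrier in blood, had 83.1, 74.95 and 70.6 CPM in siID4, against 76.5, 83.3 and 84.1 CPM in NT. Its arms overlapped, its log2 fold change was −0.09 (SE 0.07), and it was called in 0 of the 15 alternatives. Replicate 1 differed in sign from the others, with siID4 over NT at 0.12, −0.15 and −0.25 log2 units in replicates 1, 2 and 3.

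**Figure D2:**
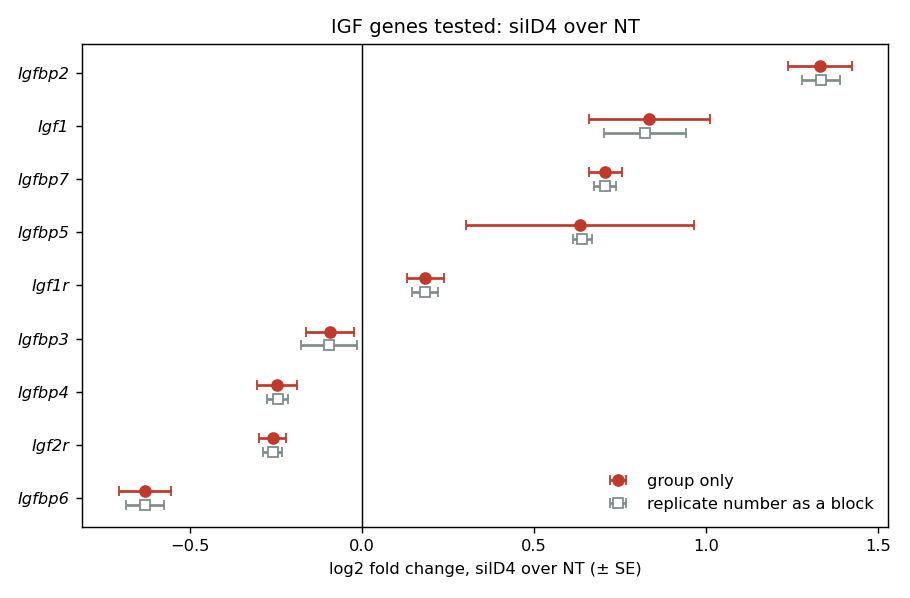
Log2 fold change of siID4 over NT (x axis, ± SE) of the 9 IGF genes tested, with group as the only term (filled) and with the replicate number as a block (open). Igfbp2 lies furthest right at 1.33 and Igfbp6 furthest left at −0.63, and the error of Igfbp5 is 0.33 without the block and 0.03 with it.

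The make-up of the carrier transcripts was described per length, as CPM per kilobase of the deposited gene length. Summed over the 6 IGFBP genes it was 519 to 542 CPM per kilobase in siID4 and 471 to 501 in NT. Without Igfbp5 the sums overlapped, at 461 to 478 CPM per kilobase in siID4 and 425 to 476 in NT. Igfbp4 took 41.1% ± 1.70 of that sum in siID4 and 53.5% ± 2.57 in NT. Igfbp7 took 25.8% ± 1.42 in siID4 and 17.4% ± 0.406 in NT, and Igfbp2 10.0% ± 0.608 in siID4 and 4.36% ± 0.396 in NT. The share of Igfbp6 was 5.53% ± 0.441 in siID4 and 9.39% ± 0.396 in NT (SD, n = 3 each, for all shares). Igfbp5 and Igfbp3 took 11.6% ± 3.19 and 5.97% ± 0.372 in siID4, and 8.34% ± 2.86 and 7.02% ± 0.330 in NT. Shares of a sum are not independent of each other.

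**Figure D3:**
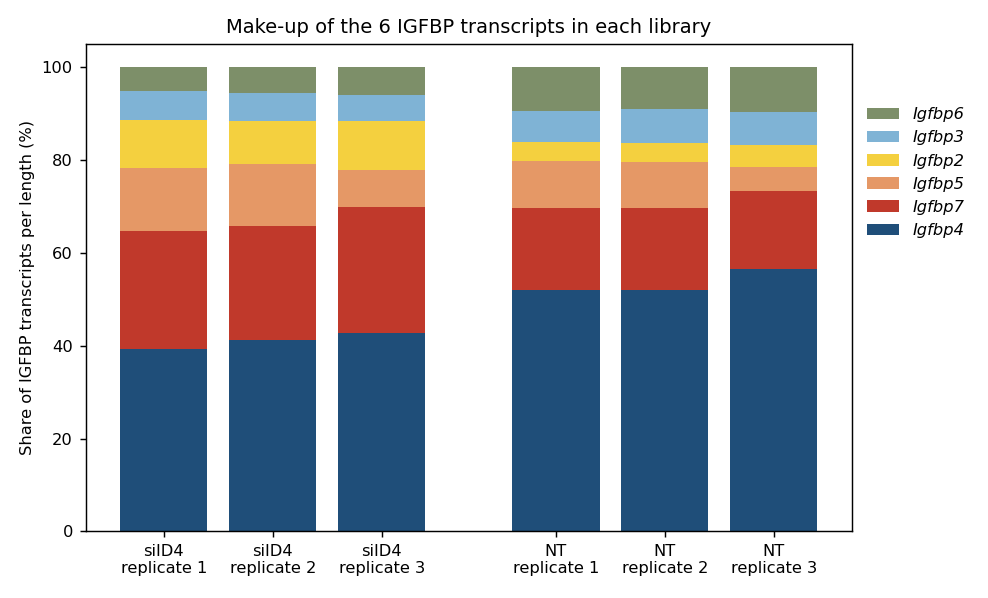
Share of each of 6 carrier genes in the summed IGFBP level per length (y axis, %), by library. Igfbp4, at the bottom, takes 39.3% to 42.6% in the siID4 libraries and 51.9% to 56.5% in the NT libraries, and Igfbp2 and Igfbp7 take larger shares in siID4.

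By level per length, the order in siID4 was Igfbp4 (218 CPM per kilobase), Igfbp7 (137), Igfbp5 (61.9), Igfbp2 (53.2), Igfbp3 (31.8), Igfbp6 (29.3), Igf2r (24.7), Igf1r (16.4), Igf1 (3.21) and Igf2 (0.147). The order in NT was Igfbp4 (259 CPM per kilobase), Igfbp7 (83.9), Igfbp6 (45.4), Igfbp5 (39.9), Igfbp3 (33.9), Igf2r (29.5), Igfbp2 (21.1), Igf1r (14.4), Igf1 (1.799) and Igf2 (0.0874). Igfbp2 thus stood below Igf2r and Igfbp6 in NT and above both in siID4. Neighbours whose libraries overlapped were Igfbp5 with Igfbp2 and Igfbp3 with Igfbp6 in siID4, and Igfbp6 with Igfbp5 and Igfbp5 with Igfbp3 in NT. Both ligands were the lowest of the 10 in each arm. Igfbp4 exceeded 97.9% of all genes tested in level per length and Igfbp7 95.2%, whereas Igf1 exceeded 23.3%.

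Outside the cell, 2 of the partners tested, Pappa and Stc2, were called, and both rose. The list of partners and the pathway lists that follow were also chosen with earlier results of these data known. Their p-values describe the genes and are not read as support. The lists share genes. Htra1 is a partner and a domain relative, and Insr a partner and a FOXO target. Irs2 is a receptor signalling gene and a FOXO target, and Grb10 a receptor signalling gene and an imprinted gene. Of 13 extracellular partners listed, 8 were tested, 2 rose and 0 fell, where 4.62% of all genes tested rose and 4.93% fell. Their median log2 fold change was 0.31 against 0.00 for all genes tested. Pappa encodes the protease PAPP-A, which cuts IGFBP4 and also IGFBP5. It had 7.30, 7.02 and 5.48 CPM in siID4, against 2.46, 2.40 and 2.55 CPM in NT, and rose by 1.41 log2 units (SE 0.16, edgeR adjusted p = 0.00152), as it did in all 6 fits without 1 library. Stc2, which encodes an inhibitor of PAPP-A, was 14.1 ± 1.64 CPM in siID4 and 9.81 ± 0.283 CPM in NT (SD, n = 3 each), a log2 fold change of 0.52 (SE 0.11, edgeR adjusted p = 0.0188). Its call was lost without siID4 replicate 1, siID4 replicate 2 or NT replicate 2. The other 6 were not called, among them the insulin receptor gene Insr (−0.15), the protease genes Adam12 (0.57), Htra1 (0.20) and Ctsd (0.08), the stanniocalcin gene Stc1 (0.41), and M6pr (0.06), the other receptor for mannose 6-phosphate. With the replicate block 6 rose and 1 fell (17.9% and 18.3% of all genes). Igfals, which encodes the third part of the complex in blood, had at most 5 counts in a library.

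Inside the cell, most genes of the IGF1R pathway were not called. Of 35 listed, 34 were tested, 3 rose and 2 fell (4.62% and 4.93% of all genes tested), and the median log2 fold change was 0.03. Foxo1, a transcription factor that AKT keeps out of the nucleus, was 61.9 ± 1.12 CPM in siID4 and 78.3 ± 4.72 CPM in NT (log2 fold change −0.34, SE 0.06, edgeR adjusted p = 0.00787). Ptpn11, which encodes the phosphatase SHP2, fell by 0.28 (SE 0.04, edgeR adjusted p = 0.00485). Pik3r3, a regulatory subunit of PI3K, was 84.6 ± 9.59 CPM in siID4 and 53.8 ± 8.32 CPM in NT and rose by 0.66 log2 units (SE 0.12, edgeR adjusted p = 0.0157, 0.0669 without siID4 replicate 2). Foxo4, a relative of Foxo1, rose by 0.31 (SE 0.07, edgeR adjusted p = 0.0268), and kept its call in 1 of the 6 fits without 1 library. Tsc2, a brake on mTOR named after its values were seen, rose by 0.18 (SE 0.05, edgeR adjusted p = 0.0383) and kept it in 0 of 6. The adaptor gene Irs1 (0.02), the catalytic subunit gene Pik3ca (−0.03) and Akt2 (0.01) had log2 fold changes near 0 and were not called. With the replicate block 12 rose and 6 fell (17.9% and 18.3% of all genes). The count was 2 without siID4 replicate 2, 3 without NT replicate 2 and 3 without NT replicate 3. Those fits called 445, 631 and 905 of all genes, against 1331 with every library.

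FOXO targets, which are transcribed when IGF and insulin signalling is low, were a mixed group. Of the 12 tested 3 rose and 0 fell (4.62% and 4.93% of all genes tested), with a median of 0.11. Pdk4, a kinase that turns off pyruvate dehydrogenase, was 8.97 ± 1.85 CPM in siID4 and 3.86 ± 0.445 CPM in NT (log2 fold change 1.22, SE 0.18, edgeR adjusted p = 0.00438). Fbxo32, which encodes the ubiquitin ligase atrogin-1, was 40.7 ± 6.84 CPM in siID4 and 20.3 ± 5.30 CPM in NT (1.00, SE 0.20, edgeR adjusted p = 0.0200), and its call was lost when low counts were not filtered out (0.101) and without siID4 replicate 1, siID4 replicate 2 or NT replicate 2. Ccng2, a cyclin of resting cells, rose by 0.40 (SE 0.07, edgeR adjusted p = 0.00909). Irs2 (0.33) and Sesn3 (−0.40) were not called. With the replicate block 5 rose and 2 fell (17.9% and 18.3% of all genes), Insr and Sesn3 being those that fell.

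Relatives of the carriers, whose proteins share the amino-terminal IGFBP domain, rose in 5 of 9 tested and fell in 0, with a median of 0.36. Of all genes tested 4.62% rose and 4.93% fell. Wisp2 was 74.2 ± 5.96 CPM in siID4 and 28.7 ± 5.94 CPM in NT (log2 fold change 1.37, SE 0.13, edgeR adjusted p = 0.00123). Wisp1 was 110 ± 7.31 CPM in siID4 and 63.3 ± 5.73 CPM in NT (0.79, SE 0.07, edgeR adjusted p = 6.63e-04). These and Cyr61 (0.53, SE 0.09, edgeR adjusted p = 0.00989) encode matricellular proteins of the CCN family. The protease gene Htra3, at 2.42 ± 0.416 CPM in siID4 and 0.999 ± 0.232 CPM in NT, rose by 1.28 (SE 0.24, edgeR adjusted p = 0.0121). Crim1, named after its values were seen, rose by 0.22 (edgeR adjusted p = 0.0338), and kept its call in 1 of the 6 fits without 1 library. Ctgf (0.36), Nov (−0.40), Htra1 and Kazald1 (−0.02) were not called. Under the block 6 rose and 1 fell (17.9% and 18.3% of all genes). Htra1 was added to those that rose and Nov was the 1 that fell. Without siID4 replicate 2, 2 of the 9 were called, Cyr61 being lost at an edgeR adjusted p of 0.0542 and Htra3 at 0.0503. Over all genes, that fit called 445 of 14168 tested, against 1331 of 13941 with every library.

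Around the imprinted ligand, H19, the noncoding RNA made from the opposite parental allele beside Igf2, was the only one of 5 imprinted growth genes tested that was called. Of all genes tested 9.55% were called. It had 18.95, 17.2 and 18.3 CPM in siID4, against 12.1, 11.3 and 10.8 CPM in NT, and rose by 0.67 log2 units (SE 0.09, edgeR adjusted p = 0.00290). All siID4 libraries were above all NT libraries, while Igf2 had 1 to 7 counts in a library. Plagl1, which encodes a zinc finger activator of this network, had a log2 fold change of 0.01. Grb10 (0.80), Mest (0.33) and Phlda2 (−0.29) were not called. Grb10 was near the floor, at 0.936 ± 0.265 CPM in siID4 and 0.541 ± 0.131 CPM in NT (SD, n = 3 each). With the replicate block 3 rose (17.9% of all genes did), H19, Grb10 (edgeR adjusted p = 0.0475) and Mest. Without NT replicate 1 the count was 2, and 1351 of all genes were called.

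**Figure D4:**
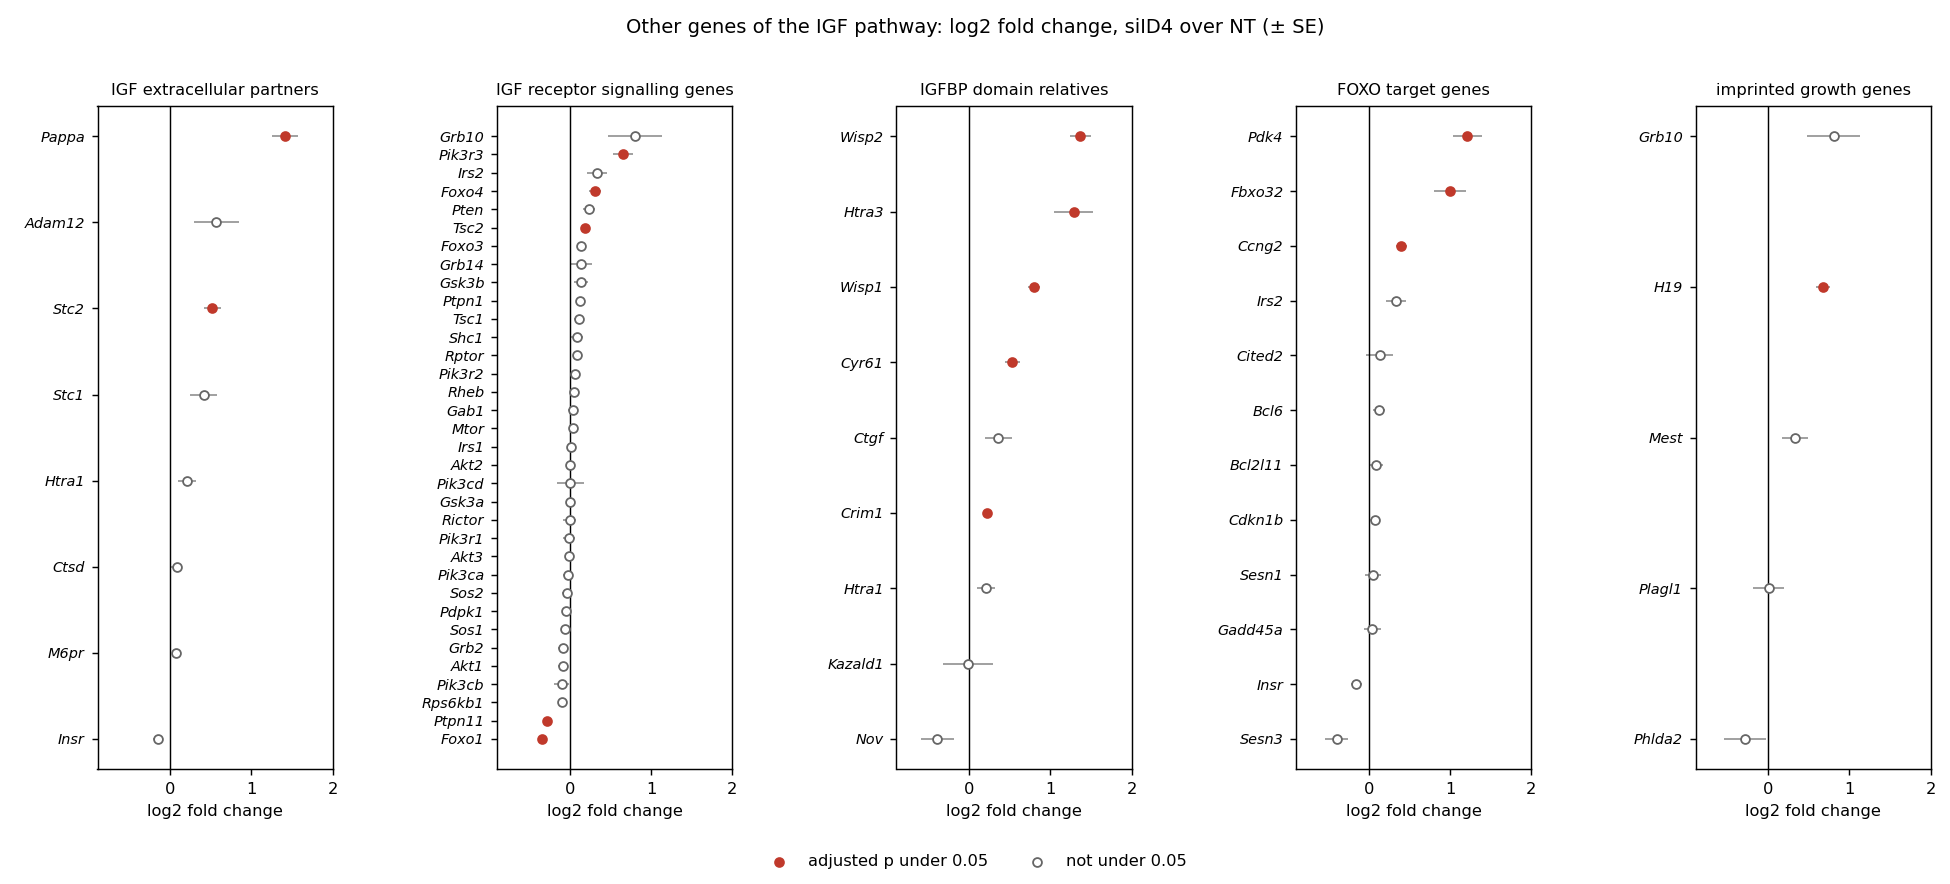
Log2 fold change of siID4 over NT (x axis, ± SE) for the genes tested of 5 lists of the IGF pathway, ordered by value. Filled points had an edgeR adjusted p under 0.05 over all genes tested, and they number 2, 5, 5, 3 and 1 in the panels from left to right. Of all genes tested 9.55% were below that threshold.

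Markers of fibroblasts, cells known to make IGF1 and IGFBPs in tissue, were higher in siID4 in sum. The table holds 11, of which 9 were tested, 4 rose and 1 fell, with a median log2 fold change of 0.43 (4.62% of all genes tested rose and 4.93% fell). Under the block 7 rose and 2 fell, Pdgfra and Dcn being those that fell (17.9% and 18.3% of all genes). Their summed level was 3967 to 4138 CPM in siID4 and 2779 to 3047 CPM in NT, most of it from the collagen genes. None was at 0 in all libraries, but Lum, Thy1 and Dpt averaged under 1 CPM. Their part in the changes of the IGF genes was not tested. In RNA from a whole culture, more cells of a kind and more of these transcripts per cell cannot be told apart.

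Among the genes whose log2 CPM followed Igfbp2 most closely over the 6 libraries were Lamc1 (Pearson r = 0.999) and Mrps14 (0.997), out of 10798 genes with at least 5 CPM. Those that followed Igfbp6 most closely were Psip1, Fam84b and Rin1 (each 0.996 or 0.997). The 6 points share the split into 2 arms, and a correlation does not see size. Igfbp2 differed by 1.33 log2 units, whereas Lamc1, a laminin chain, differed by 0.14 and Mrps14, a mitochondrial ribosomal protein, by 0.06. Lamc1 (edgeR adjusted p = 0.0536) and Mrps14 (0.542) were not called. Lamc1 was called in 6 of the 15 alternatives, with edgeR adjusted p = 5.76e-05 under the replicate block and 0.0220 with library totals. Psip1 (−0.24), Fam84b (−0.42) and Rin1 (−0.31) were called, Psip1 not without siID4 replicate 2 (edgeR adjusted p = 0.0732).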

How the data were processed

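Total RNA of 6 cultures was made into libraries from poly(A) RNA with a kit that marks strand, per the labels' protocols. The authors deposited expected counts per gene, not normalized, with a gene length in bases. Cutadapt, STAR, RSEM and the build mm10 appear, without tool versions, in the submitters' processing notes. The annotation, the strand setting and the filtering rule were not stated in what was used here. Of the values in a library, 10.0% to 10.6% were not whole and were rounded. Of 25655 genes, 25325 matched GENCODE M21 by identifier on GRCm38, the assembly also called mm10.

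Genes were tested with the quasi-likelihood method of edgeR 4.0.16 in R 4.3.3 (robust, TMM, group as the only term) on the 13941 genes that filterByExpr kept, with Benjamini-Hochberg adjustment over all of them and a threshold of 0.05. The SE comes from the F statistic. Alternatives were DESeq2 1.42.0, limma-voom (limma 3.58.1), other scalings and filters, a replicate block and leaving out libraries. Scripts were tested on simulated data. For 1 gene, an exact permutation test of 3 against 3 cannot go below p = 0.1. Log2 CPM used a prior count of 2. The spread between replicates, as a biological coefficient of variation, was 7.83%. Every pair of libraries within an arm differed beyond sampling noise (chi-square 5.09 to 13.6 per gene).

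Deviations from the arm mean were correlated over genes between same-numbered libraries (0.42, 0.14 and 0.38), and all other pairs were at most −0.02. Deviations cancel out within an arm, so positive values for the same numbers force negative ones elsewhere, and the latter are no separate evidence. The replicate block treats same-numbered libraries as pairs, which the labels do not state.

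The members and the lists were chosen with earlier results of these data known. Named were all members, Id4, up to 4 called genes of smallest adjusted p per list, and the 3 genes most correlated with the called member that rose most and with the one that fell most, of which 1 is not reported here.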

Additional observations from a re-analysis of the deposited data

How the results depend on the processing

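Over 15 alternatives, the 9 IGF genes tested kept their direction in all 135 values, 120 on the same side of the threshold, 10 no longer past it (Igf1 and Igfbp4) and 5 newly past it (Igf1r and Igfbp5). The cause was not tested. The number of IGF genes called, 6, was 4 to 6 in fits without 1 library. Without replicate 3 of both arms, a fit chosen after seeing the data, it was 6 with Igfbp4 lost and Igfbp5 gained, 4 higher and 2 lower. With the replicate block the called genes numbered 5038 of all genes (1331 without it), 8 of the IGF genes, 7 of the extracellular partners, 18 of the receptor signalling genes, 7 of the FOXO targets and 3 of the imprinted genes, and 7 of the domain relatives. The pathway lists share genes, so their counts are not separate. Among the IGF genes the block changed no call beyond Igfbp5 and Igf1r. At a mean of at least 5 CPM 1 extracellular partner was called, Pappa having been removed by the filter. Without replicate 3 of both arms 783 genes and 3 receptor signalling genes were called.

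Without 1 library in turn, 445 to 1351 genes were called in all (884 without siID4 replicate 1, 445 without siID4 replicate 2, 631 without NT replicate 2). The range was 1 to 2 for the extracellular partners (1 without siID4 replicate 1, siID4 replicate 2 or NT replicate 2), 2 to 4 for receptor signalling, 2 to 6 for the domain relatives, 2 to 4 for FOXO targets and 1 to 2 for imprinted genes. No scaling moved the median log2 fold change of all genes beyond 0.03. Depth limits Igf2, with 1 to 7 counts per library.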
